A study of Homo sapiens with 4 samples.

Results

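The 10 human Frizzled genes (FZD1 to FZD10) were examined for peaks of SOX4 on chromatin. A gene counted as carrying a peak in an immunoprecipitation when a peak of that list overlapped the window of 10 kb either side of its start on genome build hg19. FZD1 and FZD2 met this in each of the 3 lists, and FZD3 to FZD10 met it in none, so 2 of the 10 genes carried peaks. The family was selected on these same peak calls, the presence of a peak and its fold enrichment, so the numbers and strengths of the peaks are given as descriptions, with no test.

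The samples were U251 cells, an established human glioblastoma line, all overexpressing SOX4 with an HA epitope tag and all taken 3 days after virus infection. The 3 immunoprecipitations (IP 1, IP 2 and IP 3) used an antibody to the HA tag and were independent immunoprecipitations, per the labels' protocols, and 1 input of sheared chromatin served as the background of every peak call. Nothing in the labels places them in separate cultures or infections, so an SD below describes the spread between these immunoprecipitations, which may be technical. The antibody is directed at the tag, so the target is the overexpressed SOX4 and not the untagged SOX4 of the cells. An immunoprecipitation from cells without the tag was not analysed here, so signal that does not depend on tagged SOX4 cannot be told apart in these peaks. RNA was not measured in the files used, so the cell line could not be checked against marker genes. The lists rested on 24037735, 23683012 and 19228143 tags and held 627, 524 and 407 peaks, against 28755427 input tags.

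Frizzled proteins are membrane receptors whose extracellular cysteine-rich domain binds Wnt ligands. They pass the signal to Dishevelled proteins, which can stabilise β-catenin, together with a co-receptor of the LRP family, or act through the planar cell polarity branch. FZD1, FZD2 and FZD7 form one subfamily by sequence, FZD5 and FZD8 another, FZD9 and FZD10 a further one, FZD3 and FZD6 are best known from planar cell polarity, and FZD4 also binds the non-Wnt ligand norrin. SOX4 is a transcription factor whose HMG box binds and bends DNA at short A/T-rich sites. The series' title asks about its repression of specific tRNA genes, and Frizzled genes are transcribed by a different polymerase, RNA polymerase II.

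Promoter sequence is shown for FZD1, which carried a peak, and for FZD8 and FZD9, which did not, so that the letters before their starts can be read side by side. Of the 10 genes, FZD1, FZD4, FZD5, FZD8 and FZD9 (5 genes) had an entry in the RefSeq promoter table of GRCh38.p14. FZD2, FZD3, FZD6, FZD7 and FZD10 had none. Each line gives the 250 bases before the start, 5′ to 3′ on the strand of the gene, and capitals mark matches on either strand to ACAAAG (printed as CTTTGT where it lies on the opposite strand) or CCAAT (printed as ATTGG). FZD1 is at chr7:91264183-91264432 on the plus strand, FZD8 at chr10:35642297-35642546 on the minus strand, and FZD9 at chr7:73433528-73433777 on the plus strand, all on GRCh38.p14.
FZD1: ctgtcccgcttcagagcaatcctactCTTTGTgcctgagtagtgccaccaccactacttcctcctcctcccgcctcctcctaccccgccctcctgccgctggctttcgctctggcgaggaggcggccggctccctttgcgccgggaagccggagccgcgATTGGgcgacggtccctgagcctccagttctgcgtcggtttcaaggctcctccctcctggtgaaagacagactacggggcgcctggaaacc
FZD8: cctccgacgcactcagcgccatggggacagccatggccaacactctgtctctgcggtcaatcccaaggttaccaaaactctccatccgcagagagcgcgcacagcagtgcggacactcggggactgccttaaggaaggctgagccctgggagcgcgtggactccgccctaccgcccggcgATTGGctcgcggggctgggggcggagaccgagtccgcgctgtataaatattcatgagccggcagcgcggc
FZD9: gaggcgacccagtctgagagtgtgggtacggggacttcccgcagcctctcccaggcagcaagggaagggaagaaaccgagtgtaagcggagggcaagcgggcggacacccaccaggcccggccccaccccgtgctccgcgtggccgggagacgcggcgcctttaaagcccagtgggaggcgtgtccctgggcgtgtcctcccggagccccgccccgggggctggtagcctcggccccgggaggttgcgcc

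ACAAAG, a core form bound by SOX and TCF proteins, occurred before the start of FZD1 and of none of the other 4 genes with an entry. It began 224 bases before the FZD1 start. The same letters were in 13.7% of all 35116 windows of this length in the table, so a match is common. The other SOX forms searched, AACAAT and the shorter ACAAT contained in it, were in 0 of the 5 windows, against 8.98% and 24.6% of all windows. CCAAT, the motif of the NF-Y factor, was found in FZD1, FZD4, FZD5 and FZD8 (4 of the 5, against 32.0% of all windows). It lay 91 bases before the start of FZD1, and 75, 199 and 70 bases before those of FZD4, FZD5 and FZD8, which carried no peak. GGGCGG, the GC box, was in 5 of the 5 (42.6% of all windows), and TATAAA in FZD8 alone among the 5 (10.7%).

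The B box and the A box, the internal promoter elements of tRNA genes, were in 0 of the 5 windows on either strand. The same letters were in 0.0740% and 0.293% of all windows, so their absence from 5 windows tells little, and other spellings were not searched. The FZD1 window had a GC content of 65.2% and 19 CpG dinucleotides, against medians of 58% and 11 over all windows. FZD8 had the same GC content with 24 CpG, FZD9 had 72.4% with 23, FZD5 had 76.8% with 30 and FZD4 had 80.8% with 33. The gene with a peak was thus among the least GC-rich of the 5. The RefSeq start on GRCh38.p14 was not shown to be the same base as the hg19 start used for the peaks. Motif positions are therefore not set against peak positions, and a match is a description of letters, not a binding site.

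FZD1 carried 1 peak in each list, and its fold enrichment, the authors' ratio of reads at the summit to the local input background with 1 added to each, came to 23.5 (IP 1), 24.5 (IP 2) and 23.9 (IP 3). The 3 values nearly coincide, with a mean of 24.0 ± 0.48-fold (SD, n = 3). All 3 folds rest on the same input, where the background at FZD1 matched 4 reads in each list. The error of that count is not in the SD, so the SD does not measure the precision of the fold. FZD2 also carried 1 peak in each list, with a fold of 28.0 in IP 1, 15.8 in IP 2 and 21.6 in IP 3, a mean of 21.8 ± 6.07-fold (SD, n = 3). At FZD2, IP 1 was high, IP 2 low and IP 3 between them. The median peak of the same lists stood at 6.36, 6.52 and 6.91-fold. A ChIP signal from a whole culture does not tell a site bound in more cells from a site bound more strongly in each. The share of bases lying within 10 kb of a peak, counted on each chromosome up to its last peak end, was 0.36% for IP 1, 0.295% for IP 2 and 0.229% for IP 3, with 0.507% for the 3 lists together and 0.141% for regions with a peak in every list. Gene starts are not random bases, and these percentages are the background of the 2 of 10 genes only in that sense.

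**Figure D1:**
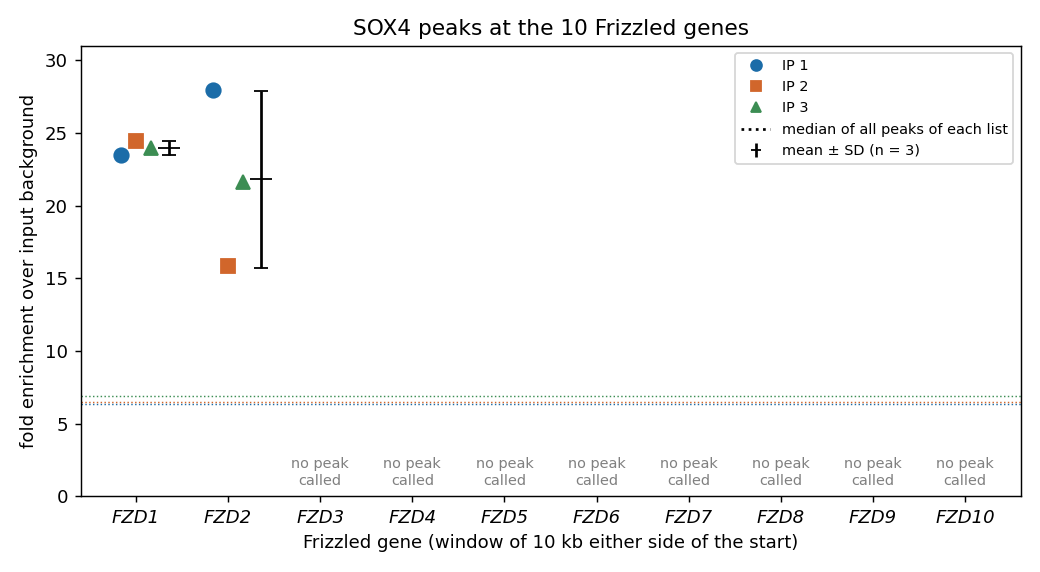
Fold enrichment over the input background (vertical axis) at the highest peak within 10 kb of the start of each Frizzled gene (horizontal axis), as 1 point for each immunoprecipitation, with the mean ± SD beside them; dotted lines are the median fold of all peaks in each list. FZD1 has 3 points close to 24-fold, FZD2 has points from 15.8 to 28.0, and the other 8 genes have no called peak.

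The FZD1 and FZD2 peaks were near the top of every list. By fold, FZD1 ranked 4 of 627 in IP 1, 3 of 524 in IP 2 and 2 of 407 in IP 3. FZD2 ranked 1, 12 and 3 in the same lists. The authors' −log10 q was 103, 108 and 90.5 at FZD1 and 99.7, 46.1 and 63.5 at FZD2.

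When overlapping peaks of the 3 lists were merged, 263 of 862 regions (30.5%) held a peak of every list, here called shared regions. Both Frizzled regions were among them, FZD1 ranking 2 and FZD2 ranking 4 of 263 by mean fold. The median shared region stood at 8.23-fold. The region ranking first, also on chromosome 7, reached 26.7 ± 0.93-fold, and the region between FZD1 and FZD2 in this order, on chromosome 17, reached 23.4 ± 2.84-fold (SD, n = 3 for each). The region ranking 5, on chromosome 1, reached 20.3 ± 1.74-fold, and the region ranking 6, on the same chromosome, 16.6 ± 3.27-fold (SD, n = 3 for each). The region ranking 7, on chromosome 6, reached 15.9 ± 3.05-fold (SD, n = 3). Each of these regions and FZD1 differed from FZD2 by less than the SD of FZD2, which leaves out their own SDs. The rank of FZD2 is thus not firm, and rank 7 is no lower limit to it: in IP 2 alone FZD2 ranked 12 of 524 peaks.

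**Figure D2:**
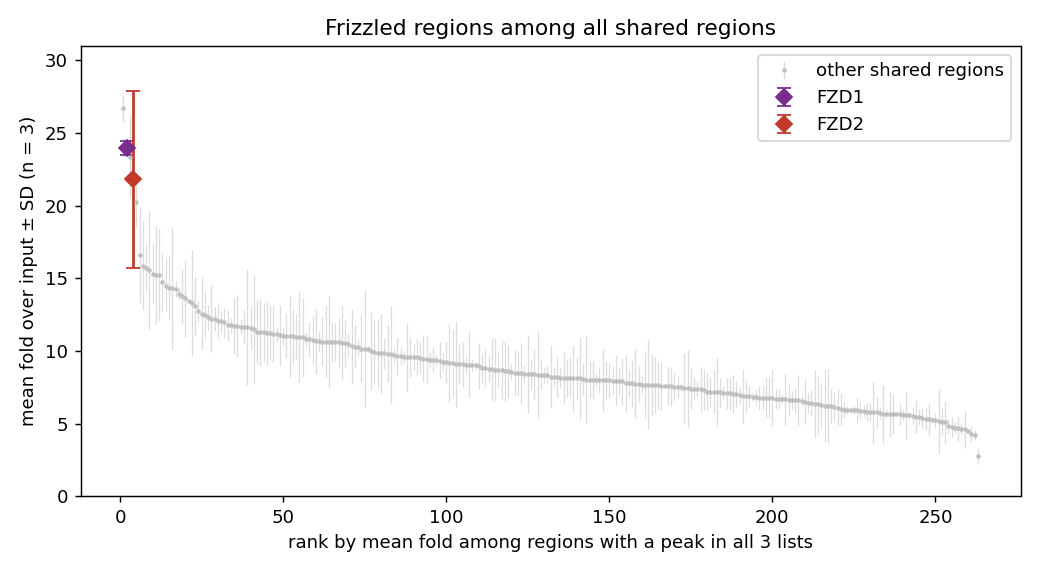
Mean fold over input ± SD of the 3 immunoprecipitations (vertical axis) for the 263 regions with a peak in every list, ordered by rank (horizontal axis); each grey point is a region, and FZD1 and FZD2 are diamonds. FZD1 ranks 2 with a short error bar, and FZD2 ranks 4 with an error bar that reaches down to the regions of the next ranks.

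The FZD1 peaks covered the start of the gene. On hg19 the start is at position 90893783 of chromosome 7, and the peaks ran from 90893565 to 90893875 (IP 1), 90893571 to 90893846 (IP 2) and 90893554 to 90893871 (IP 3). FZD1 is read on the plus strand, so the peaks reached from 218, 212 and 229 bp upstream of the start to 92, 63 and 88 bp past it. The summits lay 70, 67 and 60 bp upstream. They fell within 10 bp of one another. Of the 263 shared regions, 15 had a narrower range (ties not counted), and the median range was 37 bp.

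The FZD2 peaks ended at the start of the gene and lay almost wholly before it. The start is at position 42634812 of chromosome 17 on hg19, and the peaks ran from 42634501 to 42634820 (IP 1), 42634534 to 42634807 (IP 2) and 42634514 to 42634824 (IP 3). FZD2 too is known to be read on the plus strand. Its peaks began 311, 278 and 298 bp upstream and ended 8 bp past the start in IP 1, before it in IP 2 and 12 bp past it in IP 3. The summits lay 149, 131 and 154 bp upstream, a range of 23 bp. Every FZD2 summit was thus farther from its gene's start than every FZD1 summit. The peaks were wider than the median peak of their lists, at 311, 276 and 318 bp for FZD1 and 320, 274 and 311 bp for FZD2, against medians of 221, 208 and 237 bp.

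**Figure D3:**
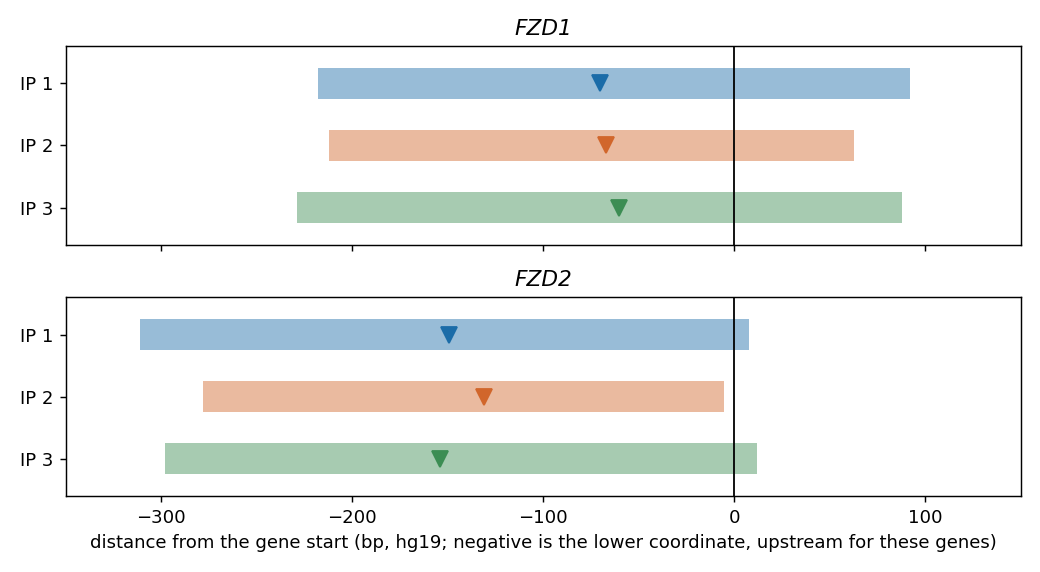
Extent of the peaks (bars) and their summits (triangles) in each immunoprecipitation, as distance from the gene start in bp on hg19 (horizontal axis; the vertical line is the start), for FZD1 above and FZD2 below. The FZD1 bars cross the start by 63 to 92 bp, while the FZD2 bars end within 12 bp of it and their summits lie 131 to 154 bp upstream.

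Fold enrichment combines the reads at the summit with the input around it, and these were set apart for both genes. The pileup, that is how many extended reads overlie the summit, stood at 101 for IP 1, 104 for IP 2 and 87 for IP 3 at FZD1. Exact 95% Poisson intervals, which cover counting error only, were 82.3 to 123, 85.0 to 126 and 69.7 to 107. At FZD2 the pileup was 88, 54 and 62, with intervals of 70.6 to 108, 40.6 to 70.5 and 47.5 to 79.5. The FZD1 intervals overlapped one another. At FZD2 the lower bound of IP 1 (70.6) lay just above the upper bound of IP 2 (70.5). These counts are not scaled to depth, which was nearly equal in IP 1 and IP 2 (24037735 and 23683012 tags). The intervals are not a test of a difference between lists, and none was run. Per the file headers, peaks were called on alignments without duplicates. Reads carry no molecular identifier here, so PCR copies cannot be told from separate molecules at the same position, and true intervals may be wider.

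Scaled to 1000000 tags, the pileup at FZD1 was 4.20, 4.39 and 4.52, a mean of 4.37 ± 0.16 (SD, n = 3). At FZD2 it was 3.66, 2.28 and 3.22, a mean of 3.06 ± 0.71 (SD, n = 3). On this scale every FZD1 value was above every FZD2 value. The local background recovered from the pileup and fold was also higher at FZD1, at 3.34, 3.29 and 2.67 reads, than at FZD2, at 2.18, 2.47 and 1.92 reads. In fold, FZD1 stood at 0.839 times FZD2 in IP 1, 1.54 times in IP 2 and 1.11 times in IP 3. FZD2 thus had the higher fold in IP 1, and FZD1 in IP 2 and IP 3.

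The input itself was not empty at either gene. At FZD1 the background matched 4 whole input reads in a window of 1 fragment length in each of the 3 lists, which was 2.30, 2.42 and 2.10 times the genome average. At FZD2 it matched 3 reads in that window in IP 2 (1.82 times the average). In IP 1 and IP 3 it matched 16 reads in 1 kb, or equally 160 in 10 kb, which give the same background of 1.50 times the average. Matches were taken within 0.01 reads. The mean background at FZD1 was 3.10 ± 0.37 reads and at FZD2 2.19 ± 0.28 (SD, n = 3 for each), against a median of 2.61 over the shared regions. So 83 shared regions had a higher background than FZD1 and 175 a higher one than FZD2.

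The spread at FZD2 was the larger of the pair. Its SD of 6.07-fold was the highest of the 263 shared regions, whose median SD was 1.30-fold. Relative to the mean it was 27.8%, which 31 of the shared regions exceeded, against a median of 15.5%. FZD1 had a coefficient of variation of 2.02%, with 5 shared regions below it. Counting error of the input that all 3 lists share is in neither spread. From IP 1 to IP 2 the fold at FZD2 changed by a factor of 0.566, and 4 of the 263 regions had a lower factor. The median factor was 0.979, and FZD1 had 1.04. The scaled pileup at FZD2 gave a factor of 0.623, lower in 5 regions, so the difference lay mostly in the reads of the immunoprecipitations and less in the background. From IP 1 to IP 3 the factor of the fold was 0.772 at FZD2 and 1.02 at FZD1, against a median of 0.924. Why IP 2 was low at FZD2 was not tested.

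**Figure D4:**
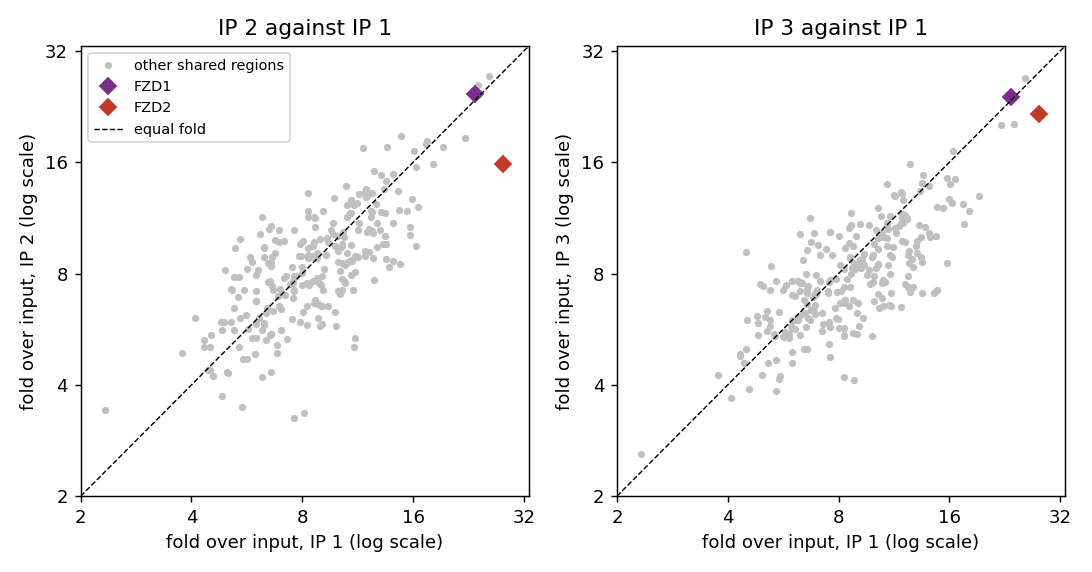
Fold over input of each shared region in IP 1 (horizontal axis, log scale) against IP 2 (left) and IP 3 (right; vertical axes, log scale), with the dashed line marking equal fold and FZD1 and FZD2 as diamonds. FZD1 sits on or near the line in both panels, while FZD2 lies below it, at 28.0 in IP 1 against 15.8 in IP 2 and 21.6 in IP 3.

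Both Frizzled peaks lay far from any other peak. The nearest other region of any list lay 5406 kb from the FZD1 region and 1027 kb from the FZD2 region. The nearest other shared region lay 8785 kb and 1196 kb away. Among the 263 shared regions the median distance to another was 74.3 kb, and 26 had a larger distance than FZD1 and 84 a larger one than FZD2. So no peak lay just outside the 10 kb window of either gene. In the gene order of the RefSeq table, the nearest protein-coding neighbours of FZD1 were CDK14 and MTERF1, and those of FZD2 were GPATCH8 and MEIOC. The nearest tRNA gene to FZD1 was TRW-CCA5-1, with 166 other genes between them, and the nearest to FZD2 was TRQ-TTG1-1, with 192 between. In this order neither gene had a tRNA gene among its close neighbours.

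FZD7, the remaining receptor of the subfamily of FZD1 and FZD2, had no peak in the window in any list. Its start is at position 202899310 of chromosome 2 on hg19, and the nearest region, a shared one at a mean of 6.87-fold, lay 4534 kb away. FZD5, on the same chromosome with its start at 208634143, had none nearer than 8345 kb. Its closest relative FZD8, on chromosome 10 at 35930362, had its nearest region at 3295 kb. FZD4, on chromosome 11 at 86666433, was the farthest of the 8 from a region of any list, at 10719 kb.

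FZD10, on chromosome 12 at 130647032, had its nearest region at 3009.6 kb, a shared one at 6.27-fold. FZD9, on chromosome 7 at 72848109, had a region of IP 1 alone at 873 kb, with a fold of 6.88. Its nearest shared region was that of FZD1, 18045 kb away. The polarity receptors FZD3 and FZD6 are both on chromosome 8, with starts at 28351773 and 104311080. Their nearest regions were single-list ones, of IP 1 at 5889.6 kb from FZD3 (3.99-fold) and of IP 3 at 4949.7 kb from FZD6 (4.71-fold). Their nearest shared regions lay 38674 kb and 8029 kb away. None of these 8 genes had a region within 100 kb, so any window from 1 kb up to that distance gives the same 2 genes.

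**Figure D5:**
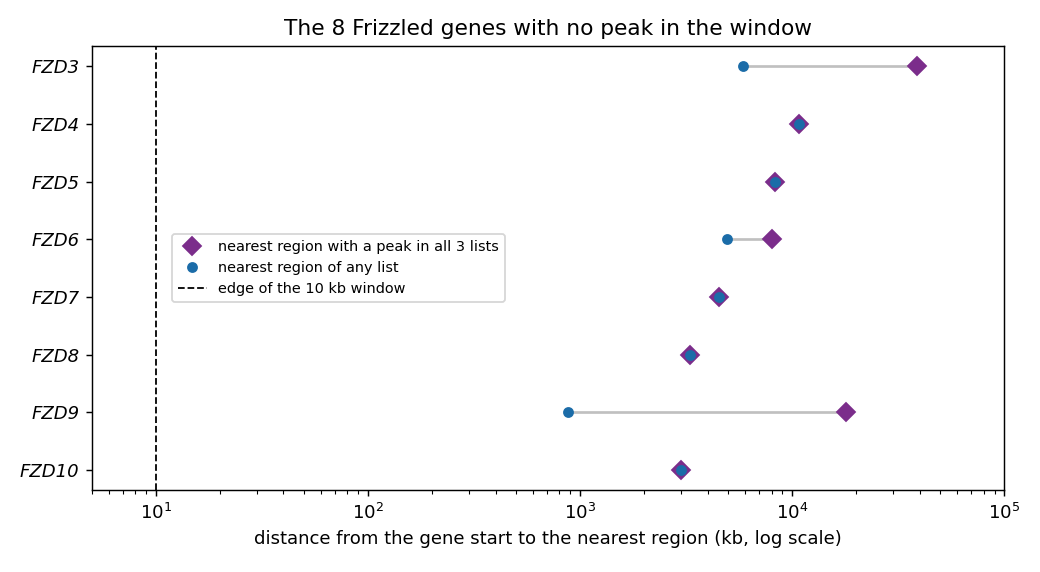
Distance from the gene start to the nearest region (horizontal axis, kb, log scale) for the 8 Frizzled genes with no peak in the window (vertical axis); circles are regions of any list, diamonds are regions with a peak in all 3 lists, and the dashed line is the edge of the 10 kb window. The closest circle is that of FZD9 at 873 kb, and the distances to a shared region run from 3009.6 to 38674 kb.

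A gene without a called peak is not shown to be unbound. The weakest peaks of the lists rested on pileups of 11, 10 and 12 reads, and at backgrounds as high as that of FZD1 or higher, peaks were called from 15, 16 and 14 reads upward. The FZD1 pileup was 9.18, 10.4 and 7.25 times the lowest of its list, and the FZD2 pileup 8, 5.40 and 5.17 times. Binding at FZD3 to FZD10 below these levels was not detectable at this depth. Reads at these 8 starts were not analysed here, only called peaks.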

How the data were processed

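The submitters' processing notes name Bowtie2 2.3.3.1 and MACS2 2.1.1.20160309 among the tools, and hg19 as the build. Per the file headers, peaks were called in each immunoprecipitation separately against the same input, on filtered alignments without duplicates, at a q threshold of 0.05, with the larger library scaled to the smaller one. Per the file headers, the pileup is a signal counted in extended reads of the immunoprecipitation. The fold is a ratio the authors deposited, as are −log10 p and q. Not given in the sources used here is the handling of reads that map equally well to several places, which could hide a peak.

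The hg19 starts were those of the request. Python 3.11.15, pandas 2.3.3 and scipy 1.17.1 were used. Peaks overlapping by at least 1 bp were merged, and the background was recovered as pileup plus 1 over fold, minus 1. Window counting was tested on simulated data. All 10 genes are named, with every region in their windows and the nearest region to each. The genes, motifs and lists were chosen with earlier results of these data known. The ratio between the genes and the nearest shared region were chosen after seeing the data. Because no hg19 annotation or protein table was used, 58 other Wnt pathway genes were not placed and the planned protein identities and their alternative were not run.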

Additional observations from a re-analysis of the deposited data

How the results depend on the processing

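The count of 2 Frizzled genes with a peak, in every list or in at least 1, was the same with windows of 1, 5 and 50 kb, at a q of 1e-10 or less, at a fold of 4 or more and with any 1 immunoprecipitation left out. For peaks in every list it was also 2 with 1 merged region and with a reciprocal overlap of 50%. The windows, thresholds and left-out immunoprecipitations could not have changed the count. Both genes had a peak at or just before the start in every list, at 15.8-fold or more and a −log10 q of 46.1 or more. No other Frizzled gene had a region nearer than 873 kb. With nothing added to pileup and background, the mean fold was 31.4 at FZD1 and 31.5 at FZD2 (24.0 and 21.8 as reported), and the pileup scaled to 1000000 tags gave 4.37 and 3.06, a different unit. Leaving out 1 immunoprecipitation gave 23.7 to 24.2 at FZD1 and 18.7 to 24.8 at FZD2. The ratio of FZD1 to FZD2, 1.10, fell to 0.997 with nothing added and ran from 0.956, without IP 2, to 1.29 with 1 left out, so the order of the genes is not firm. The cause was not tested. Motif counts among the 5 genes were the same with the 50 bases after the start included. No paired analysis was possible because the immunoprecipitation is the only group with several samples, and no result comes from a test between groups. At this depth weak peaks can be missed.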
